A study of Mus musculus with 4 samples.

Results

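Basophils were chosen by the presence of at least 1 UMI (unique molecular identifier, 1 counted transcript molecule) of at least 2 of 6 genes: Hdc, Cyp11a1, Mcpt8, Ms4a2, Cpa3 and Fcer1a. A total of 9609 liver cells showed 200 genes or more with no more than 10% of UMIs from mitochondria, and 120 of them met this rule. They were 33 and 70 cells in NCD replicates 1 and 2 and 5 and 12 cells in MCD replicates 1 and 2. The 6 genes chose the cells, so their own levels are description and carry no test.

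The libraries came from livers of male wild-type C57BL/6 mice, bought at 8 weeks of age and matched for weight. For 6 weeks they received a normal control diet (NCD, 2 libraries) or a methionine/choline-deficient diet (MCD, 2 libraries), and no gene was altered in either group. Live cells (7AAD-) that were CD45+, Ly6G- and CD11b intermediate were sorted as monocyte-derived macrophages, with F4/80 given as low in the series text and as high in the sample labels, so basophils are a minor passenger of this gate and their share is a share of sorted cells. The gate can set that share. The labels do not say how many mice went into a library. No label names a preparation batch, so diet and batch cannot be told apart.

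Basophils are rare blood granulocytes that carry the high-affinity receptor for IgE and release histamine, lipid mediators and cytokines, among them IL-4, when that receptor is cross-linked or when IL-3, IL-18 or IL-33 acts on them. They are close to mast cells in the genes they use, share the transcription factor GATA2 with them, and differ from them in proteases: mouse basophils make mast cell protease 8 and Prss34, connective tissue mast cells make other chymases and tryptases. In the liver they are a minor population of the blood and sinusoids.

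The whole libraries held 7518597 and 7428431 UMIs on NCD, and 32975974 and 37772284 on MCD. The median basophil held 1186 and 1300.5 UMIs in NCD replicates 1 and 2 and 8187 and 7711 UMIs in MCD replicates 1 and 2, below the 2181.5, 2295.5, 12048 and 12316 UMIs of the other cells. Summed over cells, basophils gave 53628, 109751, 34052 and 115646 UMIs in the same order, and these sums set the precision of every level below. Any 2 libraries shared 4 to 12 cell barcodes, none of them a basophil barcode. No doublets were removed.

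Each of the 6 rule genes has a known role. Hdc makes histamine from histidine, Fcer1a and Ms4a2 encode the alpha and beta chains of the IgE receptor, Mcpt8 and Cpa3 are granule proteases, and Cyp11a1 starts steroid synthesis from cholesterol. Hdc stood at 7552 and 6733 CPM (UMIs scaled to a sum of 1000000 over the summed cells) in basophils of NCD replicates 1 and 2 and at 4346 and 1997 CPM in those of MCD replicates 1 and 2. In the other cells of each library it stood at 35.6, 39.6, 20.7 and 25.5 CPM. The remaining 5 rule genes ranged from 130 to 1093 CPM in basophils and did not exceed 1.18 CPM in the other cells of any library. Hdc was detected in 32 of 33, 70 of 70, 5 of 5 and 12 of 12 basophils, Cyp11a1 in 20, 52, 5 and 11, Ms4a2 in 13, 30, 3 and 6, and Mcpt8 in 14, 15, 3 and 5.

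The cells at the edge of the rule differed between the diets. In NCD replicates 1 and 2, the 7 and 28 cells with exactly 2 of the genes had Hdc at 12589 and 5688 CPM, Gata2 at 987 and 527 CPM and Ifitm1, an interferon-induced membrane protein, at 5431 and 5435 CPM. In MCD replicates 1 and 2, the 2 and 6 cells with exactly 2 genes had Hdc at 322 and 142 CPM, no UMI of Gata2 or Ifitm1, and Lyz2, the lysozyme of monocytes and macrophages, at 16420 and 12432 CPM. The median such MCD cell held 6212 and 10950 UMIs, and 7 of the 8 passed on Hdc with Cyp11a1, 4 of them on a single UMI of each. Summed, these 8 cells thus had neither of those basophil genes and a Lyz2 level like that of the other cells, although 2 of them had no Lyz2 UMI. They gave 36.5% and 61.1% of the UMIs summed as basophils in MCD replicates 1 and 2 (against 15.1% and 43.2% from the 2-gene cells of NCD replicates 1 and 2, where Lyz2 stood at 247 and 2339 CPM), so the diet values below come from cells with at least 3 of the 6 genes, of which there were 26, 42, 3 and 6. Other MCD values include the 2-gene cells unless the stricter rule is named. In NCD replicates 1 and 2, 3 and 15 of the 2-gene cells passed on Hdc with Cyp11a1. There 0 and 5 of the 2-gene cells passed on a single UMI of each of their 2 genes. Cells of 1785, 1846 and 5747 UMIs in NCD replicate 2 held 1 UMI each of Hdc and Cyp11a1 and no Gata2 UMI, so such cells were not confined to MCD.

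Just outside the rule, 123, 126, 361 and 551 cells had exactly 1 of the genes. Nearly all held Hdc (119, 116, 357 and 541 cells), mostly as 1 UMI (93, 94, 233 and 352 cells). Their Lyz2 level was 4578, 4214, 14821 and 17813 CPM, close to the 4129, 4277, 13195 and 16113 CPM of cells with none of the genes. Ifitm1 stood at 85.1, 166, 26.9 and 26.4 CPM in them, against 20.2, 27.3, 23.7 and 24.0 CPM in cells with none. In NCD replicates 1 and 2, 12 and 11 of them held it. Gata2 stood at 10.9, 20.2, 6.24 and 12.5 CPM against 4.13, 8.08, 1.75 and 1.68 CPM. Whether the cells with exactly 1 gene include basophils was not tested. Cells with fewer than 1000 UMIs were left out and the others thinned to 1000 UMIs, which kept 24, 60, 5 and 11 basophils. At that depth Hdc was found in 2.34%, 2.76%, 3.85% and 4.22% of the other cells and in 91.7%, 93.3%, 80% and 72.7% of basophils. Those cells with a lone UMI of Hdc were not counted as basophils.

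**Figure D1:**
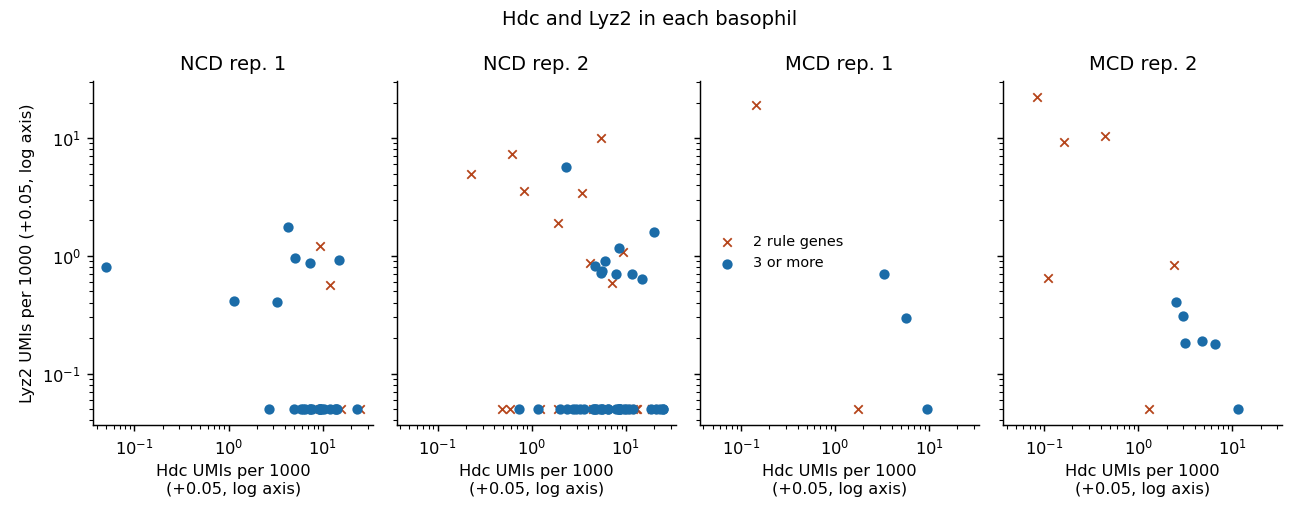
Each point is 1 basophil, with Hdc UMIs per 1000 on the x axis and Lyz2 UMIs per 1000 on the y axis (both log axes, 0.05 added so that cells at 0 appear), in 1 panel per library. Crosses have exactly 2 of the 6 rule genes and circles at least 3. In the MCD panels the circles lie at high Hdc and at most 0.646 Lyz2 UMIs per 1000, while 5 of the 6 crosses of replicate 2 and 1 of the 2 of replicate 1 carry Lyz2, up to 22.4 per 1000.

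Basophils made up a larger share of the sorted cells in the NCD libraries than in the MCD libraries. They were 1.90% and 3.92% of cells in NCD replicates 1 and 2 (95% exact Clopper-Pearson intervals 1.31% to 2.66% and 3.07% to 4.93%) and 0.169% and 0.382% in MCD replicates 1 and 2 (0.0551% to 0.395% and 0.198% to 0.667%). With each cell thinned to 1000 UMIs, which left out 133, 97, 167 and 143 shallower cells, the shares were 1.31%, 3.14%, 0.144% and 0.200%. Of the 33, 70, 5 and 12 basophils, 24, 60, 5 and 11 were deep enough to stay, so the depth limit took basophils from the NCD counts in particular. The thinned mean was 2.22% ± 1.29 (SD, n = 2) in NCD and 0.172% ± 0.0400 (SD, n = 2) in MCD. The unthinned MCD shares count the 2 and 6 cells with exactly 2 of the genes, which had no UMI of Gata2 or Ifitm1. Cells with at least 3 of the genes were 1.5%, 2.35%, 0.102% and 0.191% of cells. Both NCD libraries lay above both MCD libraries in each of these counts. With 2 libraries against 2 the exact two-sided permutation p was 0.333, the smallest this design allows. The intervals cover counting error only. In a share of sorted cells, fewer basophils cannot be told apart from more of the other cells.

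**Figure D2:**
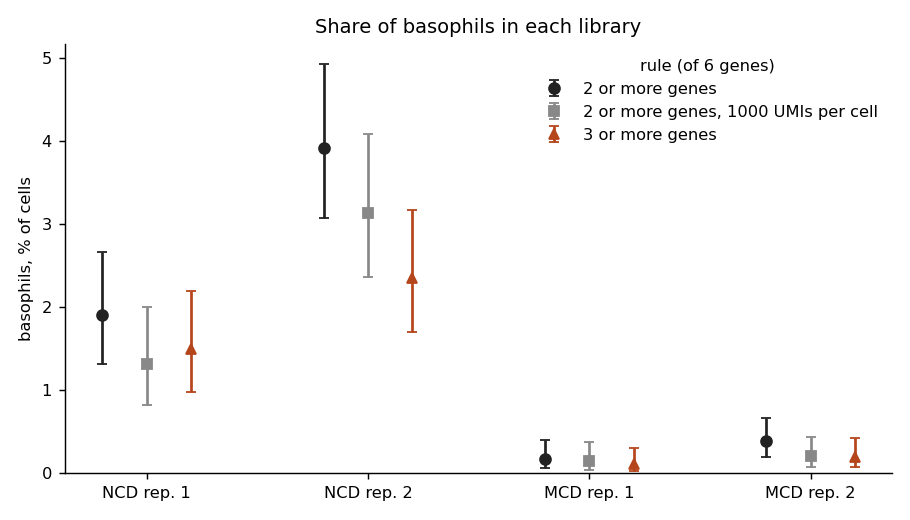
Basophils as a percentage of the cells of each library (y axis), with 95% exact binomial intervals as bars. The 3 symbols of a library are cells with 2 or more of the 6 rule genes, the same after thinning to 1000 UMIs per cell, and cells with 3 or more. All symbols of the NCD libraries lie above all symbols of the MCD libraries, and NCD replicate 2 lies above NCD replicate 1.

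Genes outside the rule were compared between basophils and the other cells of the same library, which asks what these cells transcribe that their neighbours in the sort do not. The test used the 3 libraries with at least 10 basophils, NCD replicates 1 and 2 and MCD replicate 2. MCD replicate 2 reached that number only through its 6 cells with exactly 2 rule genes, beside 6 with at least 3. Those 2-gene cells gave 61.1% of its basophil UMIs. MCD replicate 1 has no part in the test, and its values stand beside the others as description. Of 9260 genes tested, 528 (5.7%) passed an adjusted p of 0.05 in edgeR's quasi-likelihood F test with library as block, 264 higher (2.85%) and 264 lower (2.85%) in basophils. Of the 528, 346 were also called, in the same direction, without MCD replicate 2, among 439 genes (220 higher and 219 lower). The even split is not stable: DESeq2 called 228 higher and 44 lower, the fit without the block 139 higher and 16 lower, and cells with at least 3 genes, fitted in the NCD libraries alone, 146 higher and 228 lower. Without NCD replicate 1 the count fell to 272 and without NCD replicate 2 to 209.

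Most tested genes of a basophil identity list were high here. The list holds 24 genes besides the rule genes and was chosen with earlier results of these data known. Of these, 20 passed the filter on low counts. Of the 20, 17 were higher, none was lower and 3 did not pass the test. The median log2 difference was 4.66 against -0.36 over all genes tested. The filter also keeps genes that are high in basophils alone, and those near 0 in the other cells could not come out lower. The list counts are therefore description. Gata2, the transcription factor that basophils and mast cells need, stood at 858, 774, 1468 and 787 CPM in basophils of NCD replicates 1 and 2 and MCD replicates 1 and 2, and at 4.89, 9.26, 2.26 and 3.64 CPM in the other cells. The lowest basophil value lay far above the highest of the other cells, a log2 difference of 7.16 ± 0.39 (SE, adjusted p = 3.63e-72, edgeR). Cd200r3, an activating receptor of basophils and mast cells, stood at 336, 565, 499 and 199 CPM against 0.124 to 1.58 CPM, a log2 difference of 9.14 ± 0.49 (adjusted p = 2.18e-72, edgeR). Ifitm1 stood at 6042, 5494, 3172 and 2188 CPM against 24.1 to 40.8 CPM, a log2 difference of 7.06 ± 0.36 (adjusted p = 2.14e-79, edgeR).

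Summed over cells, these 3 genes were higher in basophils than in the other cells of every library, MCD replicate 1 included. They kept their calls in all alternatives run. They did not mark every cell, as the 8 MCD cells with exactly 2 rule genes had no UMI of any of the 3. The remaining higher identity genes, apart from Prss34, had log2 differences from 2.73 for Csf2rb2, a beta chain of the IL-3 receptor, to 6.29 for Csf1. The very small p-values rest on a spread that edgeR estimated as common to genes of like level, with 2 residual degrees of freedom, and on 12 to 70 basophils a library, so they measure these libraries only.

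Prss34, a basophil protease, was found in no other cell of any library. In basophils it was a gene of single cells: 2, 2, 1 and 1 cells held it, and 69 UMIs of the 638 CPM in NCD replicate 2 came from 1 cell. Against a floor of 3 counts over the other cells of the fitted libraries it was at least 4779-fold higher. Among the identity genes that did not pass the test, Lmo4 had a log2 difference of 0.44 (adjusted p = 0.56, edgeR) and the IL-3 receptor alpha chain gene Il3ra one of 0.23 (adjusted p = 0.951, edgeR), with Il3ra in 0, 2, 2 and 2 basophils.

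GATA factors favour a short motif, and the 250 bases before the start of each gene were searched for it as the word AGATAA or the word TGATAA, and likewise the word AGATAG or the word TGATAG, on both strands and with overlaps allowed. Of the 32851 promoters in the RefSeq table (build GRCm38.p6), 26.5% hold at least 1 match and 1.35% at least 3. Of the genes in the table, 29.7% have a match before any of their starts, as have 5 of the 6 rule genes and 8 of the 16 genes with an entry among the 20 named highest below. Shown are 2 promoters with 3 matches each (the IgE receptor beta chain and Cd200r3), 1 with a single match (Cpa3) and 1 with none (Mcpt8), each 5′ to 3′ along the gene, with matches in capitals. Ms4a2 is at chr19:11623720-11623969 on the minus strand, Cd200r3 at chr16:44943428-44943677 on the plus strand, Cpa3 at chr3:20242182-20242431 on the minus strand and Mcpt8 at chr14:56085198-56085447 on the minus strand.
Ms4a2: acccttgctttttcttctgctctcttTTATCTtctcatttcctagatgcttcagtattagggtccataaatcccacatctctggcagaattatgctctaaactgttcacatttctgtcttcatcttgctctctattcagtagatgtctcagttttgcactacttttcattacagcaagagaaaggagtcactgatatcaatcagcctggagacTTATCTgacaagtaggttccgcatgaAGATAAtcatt
Cd200r3: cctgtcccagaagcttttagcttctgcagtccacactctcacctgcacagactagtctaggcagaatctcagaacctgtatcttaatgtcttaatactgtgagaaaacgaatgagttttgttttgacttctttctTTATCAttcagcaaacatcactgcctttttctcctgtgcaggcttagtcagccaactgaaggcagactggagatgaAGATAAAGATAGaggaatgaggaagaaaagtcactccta
Cpa3: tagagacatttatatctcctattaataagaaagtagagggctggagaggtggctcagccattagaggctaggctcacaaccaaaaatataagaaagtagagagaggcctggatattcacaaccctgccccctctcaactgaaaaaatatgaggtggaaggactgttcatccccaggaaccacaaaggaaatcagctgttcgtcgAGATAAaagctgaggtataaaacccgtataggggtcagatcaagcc
Mcpt8: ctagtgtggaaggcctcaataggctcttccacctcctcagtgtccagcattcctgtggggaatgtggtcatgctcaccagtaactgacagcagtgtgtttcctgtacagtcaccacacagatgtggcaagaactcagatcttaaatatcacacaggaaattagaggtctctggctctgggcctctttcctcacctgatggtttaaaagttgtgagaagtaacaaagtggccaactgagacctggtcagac
In Cd200r3, 2 of the 3 matches adjoin, starting 39 and 33 bases before the start of the gene. In Ms4a2 the nearest starts 11 bases before it and in Cpa3 the only one 46 bases before it. A match is a run of letters, not a bound site, and the absence of one says only that these letters are not in this window.

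The 20 genes with the largest log2 differences among called genes at a mean of 50 CPM or more, after the rule genes, ran from Prss34 to Atp1b1, a sodium pump subunit (log2 5.08). Csrp3, a LIM protein best known from muscle, was in 7, 25, 2 and 6 basophils at 354, 392, 176 and 77.8 CPM. It had 1 UMI in the other cells of the fitted libraries against 71 in basophils, a ratio of 11974 with a 95% counting interval of 2081 to 479542. Dnase2b, a lysosomal nuclease, had 15 UMIs against 1, a ratio of 2530 (389 to 106499). For both genes the direction is plain and the size is not.

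Others of the 20 fell into a few roles. Cdh1 (E-cadherin, log2 7.35) and Cd200r3 are surface proteins, Hs3st1 (6.23) modifies heparan sulphate, and Sytl3 (6.21) and Slc18a2 (5.18) serve vesicles, Slc18a2 by loading amines such as histamine into them. Spry2 (5.24) restrains growth factor signalling, Fosl1 (5.15) is an AP-1 subunit, and Cxcr2 (5.29) is a chemokine receptor. Of these genes Spry2 was lowest in MCD replicate 1, at 29.4 CPM against 392, 665 and 225 CPM in the other libraries, and Fosl1 had no UMI there.

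Of 18 listed genes that signal from the IgE receptor, 16 were tested, 2 were higher (over all genes 2.85% were), none was lower and 14 did not pass, with a median log2 difference of -0.26, against -0.36 over all genes tested. The counts of every list below in this comparison stand against the same background: 2.85% higher, 2.85% lower and a median of -0.36. Some genes are counted in more than 1 list, such as Il4 in the identity and secreted factor lists. Fcer1g, the gamma chain that other Fc receptors of myeloid cells also use, stood at 2461, 2588, 1410 and 1850 CPM in basophils and at 2371, 2317, 2057 and 1948 CPM in the other cells. The log2 difference was 0.00 ± 0.29 (adjusted p = 0.999, edgeR) and its sign changed between alternatives. Lyn, the kinase that phosphorylates the receptor, had a log2 difference of -1.0 ± 0.34 (adjusted p = 0.0512, edgeR). The higher genes were the adaptors Lat2 (log2 1.81, adjusted p = 0.000136, edgeR) and Gab2 (log2 1.82, adjusted p = 0.0128, edgeR). Without NCD replicate 2 the adjusted p was 0.22 for Lat2 and 0.646 for Gab2, and without NCD replicate 1 it was 0.0948 for Gab2.

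Receptors for activating cytokines were mixed. Of 20 listed, 18 were tested, 8 were higher, 1 was lower and 9 did not pass, with a median log2 difference of 0.34. Both chains of the IL-18 receptor were higher: Il18r1 stood at 261, 410, 117 and 60.5 CPM against 1.97 to 6.11 CPM in the other cells (log2 5.58 ± 0.48, adjusted p = 5.66e-29, edgeR). Il18rap stood at 37.3, 146, 529 and 208 CPM against 4.48 to 13.4 CPM (log2 4.0 ± 0.51, adjusted p = 5.29e-13, edgeR). The 2 chains did not follow the same order over libraries, Il18r1 being higher in NCD and Il18rap in MCD.

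The IL-7 receptor alpha chain Il7r, which also serves the TSLP receptor, stood at 280, 228, 117 and 51.9 CPM against 5.5 to 11.3 CPM (log2 4.41, adjusted p = 1.16e-16, edgeR). Its partner for TSLP, Crlf2, had a log2 difference of 0.41 (adjusted p = 0.798, edgeR). The IL-33 receptor Il1rl1 was higher at log2 3.80 (adjusted p = 2.05e-09, edgeR), but at 0.0693 without NCD replicate 2, and its co-receptor Il1rap at log2 2.36 had an adjusted p of 0.864 without that library. The shared beta chains Csf2rb2 (log2 2.73) and Csf2rb (log2 1.64) and the kinase Jak2 (log2 1.49) were higher as well. Without NCD replicate 2 the adjusted p was 0.0512 for Csf2rb and 0.219 for Jak2. The interferon gamma receptor chain Ifngr1 was lower (log2 -1.19, adjusted p = 0.0189, edgeR), with 0.113 and 0.22 without NCD replicate 1 and 2.

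Of 20 listed secreted factors, 15 were tested, 9 were higher, none was lower and 6 did not pass, with a median log2 difference of 2.09. The chemokine gene Ccl4 took 49769, 47608, 17444 and 15573 CPM of basophils and 598, 694, 854 and 1217 CPM of the other cells. Its neighbour on chromosome 11, Ccl3, took 21612, 19745, 18942 and 14985 CPM against 492, 541, 699 and 1093 CPM. Both genes encode chemokines that attract leukocytes, and their log2 differences were 5.39 ± 0.38 (adjusted p = 1.65e-42) and 4.77 ± 0.35 (adjusted p = 8.46e-40, edgeR).

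Ccl4 was in 33, 69, 5 and 10 basophils, that is in all but 3 of 120. It was also in 24.1%, 26.0%, 25.8% and 33.2% of the other cells at 1000 UMIs, against 100%, 95%, 80% and 72.7% of basophils. Ccl6 (log2 1.92) and Ccl9 (log2 2.09), myeloid chemokines of high level in both classes, were higher by less. The growth factor genes Csf1 (log2 6.29), Osm (log2 4.74) and Hgf (log2 4.15) were higher in every library. Csf1, the growth factor of monocytes and macrophages, stood at 1846, 2323, 1116 and 1167 CPM in basophils and at 13.3 to 35.9 CPM in the other cells.

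Il6 stood at 1958, 2105 and 1652 CPM in basophils of the fitted libraries and had no UMI in the 5 basophils of MCD replicate 1, against 14.1 to 37.1 CPM in the other cells (log2 6.06 ± 0.35, adjusted p = 1.56e-63, edgeR). Il4, the type 2 cytokine typical of basophils, stood at 503, 492, 88.1 and 77.8 CPM against 4.21 to 10.6 CPM (log2 5.55 ± 0.43, adjusted p = 8.37e-35, edgeR). It was in 14, 32, 2 and 7 basophils. Il13 was in 0, 1, 0 and 2 basophils and Il5, Il10, Csf2 and Areg in none, which at these depths allows up to 10.8 CPM over the fitted libraries. Tnf had a log2 difference of 0.31 (adjusted p = 0.836, edgeR) and Il1b one of 0.16 (adjusted p = 0.901, edgeR).

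**Figure D3:**
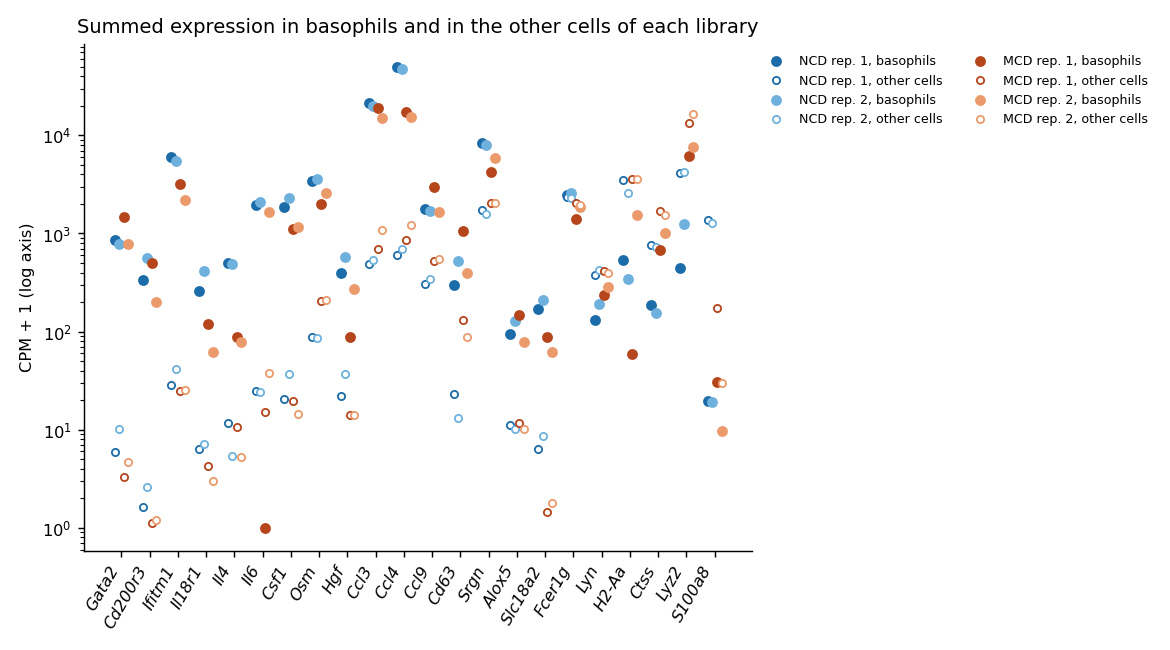
CPM plus 1 (y axis, log) of 22 genes (x axis) in the summed basophils (filled circles) and in the summed other cells (open circles) of each library, by colour. From Gata2 to Slc18a2 the filled circles lie above the open ones in every library except for Il6 in MCD replicate 1, which had no UMI. For Fcer1g the classes overlap, and for S100a8 and Lyz2 the filled circles lie below the open ones of the same library.

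Granule and mediator genes were higher in part. Of 18 granule and exocytosis genes, 14 were tested, 6 were higher, 1 was lower and 7 did not pass (median log2 1.18). Srgn, the proteoglycan that packs granule contents, stood at 8391, 8027, 4199 and 5889 CPM against 1582 to 2042 CPM (log2 2.01 ± 0.30, adjusted p = 1.89e-09, edgeR). Cd63 RNA stood at 298, 519, 1057 and 398 CPM against 22.2, 12.2, 131 and 86.7 CPM (log2 3.70 ± 0.38, adjusted p = 5.16e-20, edgeR). The surface protein of Cd63 marks degranulation, which an RNA level does not measure. Rab44, a GTPase of granule release (log2 3.29), Gzmb (log2 3.10) and the syntaxin Stx3 (log2 2.01) completed the higher genes with Prss34. The value of Gzmb rests largely on MCD replicate 2, and without it the log2 difference was 1.61. For Stx3 the adjusted p was 0.0602 without NCD replicate 2. Lamp1, a lysosomal membrane protein, was lower (log2 -1.19, adjusted p = 0.0122, edgeR), with 0.234 without NCD replicate 1.

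Of 15 genes of lipid and amine mediators, 12 were tested, 4 were higher, 1 was lower and 7 did not pass (median log2 -0.48, or -0.18 with the gene at 0 in basophils set to its bound). Alox5, the first enzyme of leukotriene synthesis, stood at 93.2, 128, 147 and 77.8 CPM against 9.06 to 10.7 CPM (log2 3.36 ± 0.53, adjusted p = 1.7e-08, edgeR). Ptgs2, the inducible cyclooxygenase, stood at 2424, 3936, 1997 and 1150 CPM against 175 to 244 CPM (log2 3.40 ± 0.32, adjusted p = 1.61e-24, edgeR). Alox15 (log2 3.25) and Slc18a2 were the other higher genes. Ltc4s, which makes leukotriene C4, had 1 UMI in all basophils, and Alox5ap, the partner of Alox5, had a log2 difference of 0.63 (adjusted p = 0.253, edgeR). Hpgd, which degrades prostaglandins, was lower (log2 -1.34, adjusted p = 0.0207, edgeR), with 0.456 and 0.636 without NCD replicate 1 and 2.

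Among 20 transcription factors, 18 were tested, 3 were higher, 2 were lower and 13 did not pass (median log2 -0.15). Over all genes 2.85% were higher and 2.85% lower (median log2 -0.36). Besides Gata2, the higher ones were Ikzf2 (Helios, log2 2.76, adjusted p = 1.42e-05) and Tal1 (log2 2.76, adjusted p = 0.00771, edgeR). Without NCD replicate 2 the adjusted p was 0.142 for Ikzf2 and 0.699 for Tal1, and without MCD replicate 2 it was 0.118 for Tal1. Irf8, which drives monocytes and dendritic cells, stood at 0, 18.2, 29.4 and 86.5 CPM against 143 to 245 CPM (log2 -2.31 ± 0.48, adjusted p = 8.85e-05, edgeR). Runx3 was lower too (log2 -1.90, adjusted p = 0.0262, edgeR), with 0.493 without NCD replicate 2 and 0.135 without MCD replicate 2. Runx1, which basophils need, had a log2 difference of 0.97 (adjusted p = 0.0687, edgeR).

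Of 23 surface and adhesion genes, 20 were tested, 4 were higher, 2 were lower and 14 did not pass (median log2 -0.30). The activation marker Cd69 stood at 2499, 2205, 1380 and 424 CPM against 27.7 to 74.1 CPM (log2 4.58 ± 0.33, adjusted p = 6.25e-40, edgeR). The tetraspanin Cd9 was higher at log2 1.97 (adjusted p = 3.55e-08, edgeR), and Lilrb4a at log2 1.48 (adjusted p = 8.81e-05, edgeR), though reads of Lilrb4a can be shared with its near copy Lilr4b. The integrin chain Itga4 (log2 -1.37, adjusted p = 0.00495) and the inhibitory receptor Cd300a (log2 -1.54, adjusted p = 0.0056, edgeR) were lower. Itga4 had adjusted p of 0.127 and 0.162 without NCD replicate 1 and 2, and Cd300a 0.0889 and 0.0594 without NCD replicate 2 and MCD replicate 2.

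Of 18 receptors for chemoattractants, 14 were tested, 5 were higher, none was lower and 9 did not pass (median log2 0.78). Cxcr2 stood at 112, 146, 117 and 25.9 CPM against 0.743 to 3.05 CPM (log2 5.29 ± 0.70, adjusted p = 5.77e-12, edgeR). The prostaglandin E2 receptor Ptger3 (log2 6.07) and the anaphylatoxin receptors C3ar1 (log2 3.44) and C5ar1 (log2 2.32) were higher. Ccr1 (log2 1.31, adjusted p = 0.0246, edgeR) was at 0.205 and 0.612 without NCD replicate 1 and 2. Ptgdr2, a prostaglandin D2 receptor of human basophils, had no UMI in any basophil. Of 14 genes of survival and STAT5 signalling, 13 were tested, Cish (log2 2.34) and Pim1 (log2 1.10) were higher, Socs3 was lower (log2 -1.43) and 10 did not pass (median log2 -0.13). Both higher genes are induced by IL-3 through STAT5, and their adjusted p without NCD replicate 2 were 0.736 and 0.271. Pim1 was also at 0.152 without NCD replicate 1, and Socs3 lost its call without any 1 library (0.0968 to 0.165).

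Of the 10 class II presentation genes listed, all were tested, 6 were lower, none was higher and 4 did not pass (median log2 -1.64). H2-Aa stood at 541, 346, 58.7 and 1548 CPM against 3536, 2570, 3621 and 3574 CPM (log2 -2.27 ± 0.31, adjusted p = 3.33e-11, edgeR), and Cd74, the invariant chain, at 634, 292, 117 and 4695 CPM against 2283 to 8496 CPM (log2 -1.99 ± 0.31, adjusted p = 1.49e-08, edgeR). MCD replicate 2 was high in both. In its cells with at least 3 rule genes H2-Aa was at 88.8 CPM and Cd74 at 111 CPM. All 6 calls were lost without the library block (adjusted p 0.0748 to 0.504, edgeR), and that of H2-DMa was at 0.058 without NCD replicate 1.

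**Figure D4:**
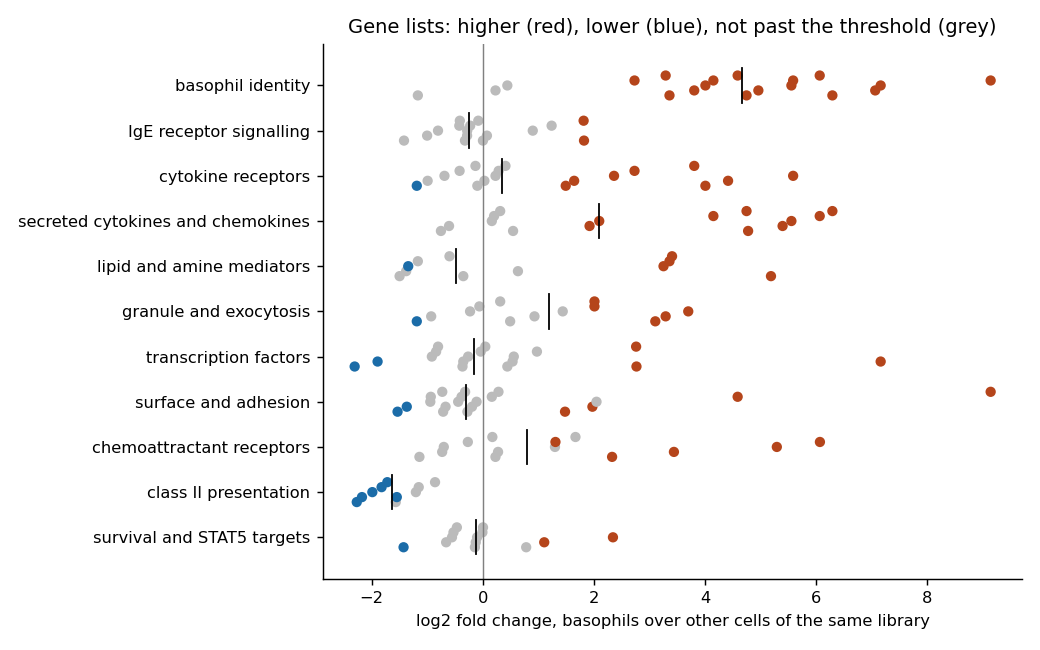
Log2 fold change of basophils over the other cells of the same library (x axis) for the tested members of 11 gene lists (y axis), 1 point per gene. Red points are higher and blue points lower at an adjusted p of 0.05, grey points did not pass, and black bars are the medians over all tested members of a list. Points for Prss34, Hpgds and Irf4, each at 0 in 1 class of the fitted libraries, are left out. The identity list lies furthest right, and the class II list is the only one with a bar left of -1.

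Among the 10 lowest genes, S100a8, a calcium-binding protein of neutrophils and monocytes, stood at 18.6, 18.2, 29.4 and 8.65 CPM in basophils and at 1375, 1268, 175 and 29 CPM in the other cells (log2 -5.64 ± 0.55, adjusted p = 6.26e-22, edgeR). Its partner S100a9 and the complement gene C1qc had no UMI in basophils of the fitted libraries and were at least 57.3-fold and 5.37-fold lower against the floor of 3 counts. Cd177, C1qa, Cd209a, Flt3, Ccnd1, Clec10a and Tnfsf9 made up the rest of the 10 lowest. Of these, C1qa, Cd177, Flt3, Clec10a and Tnfsf9 were seen as 1 or 2 UMIs in the fitted basophils, with adjusted p of 0.000691, 0.00196, 0.00283, 0.00413 and 0.000403 (edgeR), and each lost its call without MCD replicate 2 (0.0548 to 0.37). Clec10a was also at 0.0542 and 0.0955 without NCD replicate 1 and 2.

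Markers of other cell types in the basophil sums were as follows. Of 9 mast cell markers only Kit had UMIs (2, 2, 1 and 2), and the mast cell proteases Mcpt1, Mcpt2, Mcpt4, Cma1, Tpsb2 and Tpsab1 and the receptors Mrgprb1 and Mrgprb2 were at 0 in all basophils. Of 8 eosinophil markers 1 or 2 had UMIs in each library, their sum was 43.2 to 206 CPM, and Epx, Prg2, Prg3, Ear1, Ear6 and Il5ra were at 0. Of 12 monocyte and macrophage markers 7 to 10 had UMIs, summing to 709 and 1649 CPM in NCD and 8193 and 9797 CPM in MCD. In cells with at least 3 rule genes these sums were 703, 578, 370 and 400 CPM, against 5764 to 20109 CPM in the other cells. Of 12 tested, 8 of these markers were lower and none was higher.

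Of 9 neutrophil markers 3 to 6 had UMIs (45.6 to 764 CPM), and Ngp, Camp and Ltf were at 0. Of 8 dendritic cell markers 0 to 3 had UMIs (0 to 429 CPM). In cells with at least 3 rule genes the neutrophil sums were 176, 48.2, 46.2 and 0 CPM. The dendritic cell sums there were 505, 48.2, 0 and 0 CPM, against 511, 443, 362 and 535 CPM in the other cells. The 7 endothelial markers summed to 1193, 765, 0 and 986 CPM, with Kdr in 1, 3, 0 and 2 basophils. In cells with at least 3 rule genes their sums were 1340, 96.3, 0 and 88.8 CPM. Of 9 NK, T and ILC markers 3 to 5 had UMIs, 138 to 382 CPM, with Il7r as the largest part except in MCD replicate 1, where Nkg7 had more UMIs (6 against 4), and Cd3d and Cd3e were at 0. B cell markers summed to at most 17.3 CPM and erythroid markers to at most 18.6 CPM. Hepatocyte markers summed to 82.0 to 323 CPM, almost all from Trf, and Alb was at 0. Platelet markers other than Itga2b were at 0. Progenitor markers summed to 55.9 to 147 CPM. The part of these other cell types in the results was not tested.

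Some of the calls above were also lost when the cells or the model changed. With DESeq2 the adjusted p was 0.0505 to 0.313 for 15 named genes, all lower in basophils except Ccr1 and Pim1: Socs3, Lamp1, Ifngr1, Itga4, Cd300a, Hpgd, Runx3, H2-DMa, S100a9, C1qa, Cd177, Clec10a and Flt3. In cells with at least 3 rule genes, fitted in the NCD libraries alone, edgeR's adjusted p was 0.0576 to 0.583 for C5ar1, Ccr1, Gab2, Gzmb, Il1rap, Jak2 and Tal1 among the higher genes and for C1qa, C1qc, Cd177, Cd300a, Clec10a, Flt3, Runx3, Socs3 and Tnfsf9 among the lower ones. Without the library block 32 named calls were lost, among them Alox15, Irf8, Lilrb4a and Cish besides the class II genes (0.0504 to 0.504, edgeR).

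The size of a difference also moved by more than 1.5 times for some genes when 1 library was left out. Without MCD replicate 2 the log2 difference rose to 6.23 for Ccl4, 4.69 for Cd63, 6.15 for Il4, 5.42 for Il7r, 5.35 for Osm, 6.86 for Ptger3, 4.13 for C3ar1, 3.49 for Csf2rb2, 2.24 for Csf2rb and 2.97 for Cish, and came to 5.46 for Sytl3. The lower genes Irf8 (-3.59), Hpgd (-2.62), Cd74 (-2.59), H2-Ab1 (-2.79) and H2-DMa (-3.15) were then further below the other cells. Without NCD replicate 2 it came to 2.71 for Cd63, 4.79 for Il4, 3.77 for Il7r, 2.60 for C3ar1, 1.96 for Csf2rb2, 2.76 for Ptgs2, 2.67 for Rab44, 4.35 for Fosl1, 3.90 for Gzmb, 1.46 for Cish, 1.45 for Il1rap and 3.0 for Il1rl1. Without NCD replicate 1 it was 3.77 for Gzmb. Of the 10 lowest genes, each with at most 4 UMIs in the fitted basophils, all except S100a8 shifted by more than this in 1 or more of these fits, as did Prss34 and Csrp3.

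In MCD cells with at least 3 rule genes Irf8 had no UMI. There Il18r1 stood at 185 and 155 CPM in MCD replicates 1 and 2, Il7r at 185 and 133 CPM, and Cxcr2 at 185 and 66.6 CPM. Srgn stood at 4901 and 12083 CPM, Ptgs2 at 2543 and 1688 CPM, and Alox5 at 231 and 155 CPM. Csf1 stood at 1757 and 2976 CPM, and Il6 at 0 and 4220 CPM. For Srgn, Ptgs2, Alox5, Csf1, Il18r1, Il7r and Cxcr2 both MCD values stayed above those of the other cells.

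Eosinophils, the other granulocyte with type 2 functions, were the nearest comparison in the sort. Cells with UMIs of at least 2 of Siglecf, Epx, Prg2, Ear6, Il5ra and Ccr3 numbered 23, 5, 198 and 85, and 1 basophil met that rule as well and was left out. NCD replicate 1 and MCD replicate 2 had at least 10 of both classes, and in these 2 libraries 25 of 1425 genes (1.75%) passed in edgeR, 18 higher (1.26%) and 7 lower (0.491%) in basophils. Gata2 stood at 858 and 787 CPM in basophils and at 0 and 3.24 CPM in eosinophil cells (log2 7.96 ± 0.95, adjusted p = 0.00321, edgeR). Cd200r3 stood at 336 and 199 CPM against 0 and 3.24 CPM (log2 6.13 ± 0.93, adjusted p = 0.00807, edgeR). Il6 (log2 5.04), Cd69 (log2 4.99), Csf1 (log2 4.97), Ccl3 (log2 5.07), Ccl4 (log2 5.75), Osm (log2 3.59) and Hgf (log2 3.06) were higher in basophils too, with adjusted p from 0.0133 to 0.0471 (edgeR).

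Cd24a, Cd209a and Retnlg were lower in basophils than in eosinophil cells (log2 -3.31, -5.24 and -4.0). Cd209a is also in the dendritic cell list and Retnlg in the neutrophil list. Epx had 0 UMIs in the eosinophil cells of both fitted libraries. Whether those cells include other cell types was not tested. On the basophil side, cells with exactly 2 rule genes gave 61.1% of the UMIs of MCD replicate 2. The eosinophil rule genes Ccr3 (93.2 and 43.2 CPM in basophils, 965 and 577 CPM in eosinophil cells) and Siglecf (0 and 0 CPM against 370 and 262 CPM) are description. Il4 was in both cell kinds: eosinophil cells had 144, 113, 166 and 68.0 CPM, and its log2 difference was 1.31 ± 0.68 (adjusted p = 0.588, edgeR). The 113 CPM of NCD replicate 2, a library outside the fit, is 1 UMI. Alox15, higher in basophils than in the rest of the sort, had a log2 difference of -1.41 ± 0.61 from eosinophil cells (adjusted p = 0.444, edgeR). On simulated counts this comparison recovered 0% of 4-fold changes, so the lack of a call does not show like levels for either gene.

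Diet within basophils was not tested, because MCD replicate 1 held fewer than the 10 basophils set as the minimum. Values are given for cells with at least 3 rule genes, 26 and 42 in NCD and 3 and 6 in MCD. Of 2232 genes at a mean of 50 CPM or more in these cells, 29.5% had both MCD libraries above both NCD libraries and 20.2% both below. In the identity list 6 of 19 (31.6%) lay above and 4 (21.1%) below, near those shares. Gata2 stood at 835 and 963 CPM in NCD and at 2312 and 2021 CPM in MCD. Itga2b, an integrin chain of basophils, mast cells and platelets, stood at 0 and 64.2 CPM in NCD and at 601 and 422 CPM in MCD, where 3 of 3 and 6 of 6 cells held it. Cd63 stood at 329 and 578 CPM in NCD and at 1526 and 1000 CPM in MCD, and it was also higher in the other MCD cells (131 and 86.7 CPM) than in the other NCD cells (22.2 and 12.2 CPM).

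Il4 stood at 329 and 578 CPM in NCD and at 139 and 178 CPM in MCD, and Cd69 at 2350 and 2553 CPM against 2173 and 1000 CPM (MCD replicates 1 and 2). Fcer1g stood at 2482 and 2456 CPM in NCD and 1341 and 1621 CPM in MCD. The chemokines went apart: Ccl3 stood at 21219 and 20117 CPM in NCD and at 29360 and 37449 CPM in MCD, and Ccl4 at 48632 and 47764 CPM against 27280 and 39559 CPM. Ifitm1 overlapped, at 6150 and 5539 CPM against 4994 and 5620 CPM, and so did Cd200r3 (308 and 706 CPM against 786 and 511 CPM). Gzmb was at 65.9, 225 and 185 CPM in 3 libraries and at 1355 CPM in MCD replicate 2. Exact Poisson intervals of these values, which cover counting error only, do not cover the difference between mice, and each MCD value rests on 3 or 6 cells.

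Of the class II genes 5 could be compared, and 4 of them (80%) lay below NCD in both MCD libraries, against 20.2% over all genes. H2-Aa stood at 571 and 401 CPM in NCD against 46.2 and 88.8 CPM in MCD. H2-Ab1 stood at 395 and 144 CPM against 46.2 and 133 CPM, so its nearest values lay close together. H2-Eb1 and Cd74 were in the same order. Dendritic cell markers in these cells summed to 505 and 48.2 CPM in NCD and to 0 and 0 CPM in MCD, and their part was not tested. The summed cells held 21628 and 45021 UMIs in MCD replicates 1 and 2, so these MCD values rest on few UMIs. In the other cells Cd74 was higher in MCD (8307 and 8496 CPM) than in NCD (2869 and 2283 CPM). Of 11 cytokine receptor genes compared, 6 (54.5%) lay above NCD in both MCD libraries and 1 (9.09%) below, against 29.5% and 20.2% over all genes. The 6 were Il18rap, Il2rg, Crlf2, Csf2rb2, Csf2rb and Jak2. Of 13 granule and exocytosis genes, 5 (38.5%) lay above and none below, against the same shares. The MCD basophils were also the deeper ones (median 8187 and 7711 UMIs against 1186 and 1300.5), and the part of depth in these differences was not tested.

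**Figure D5:**
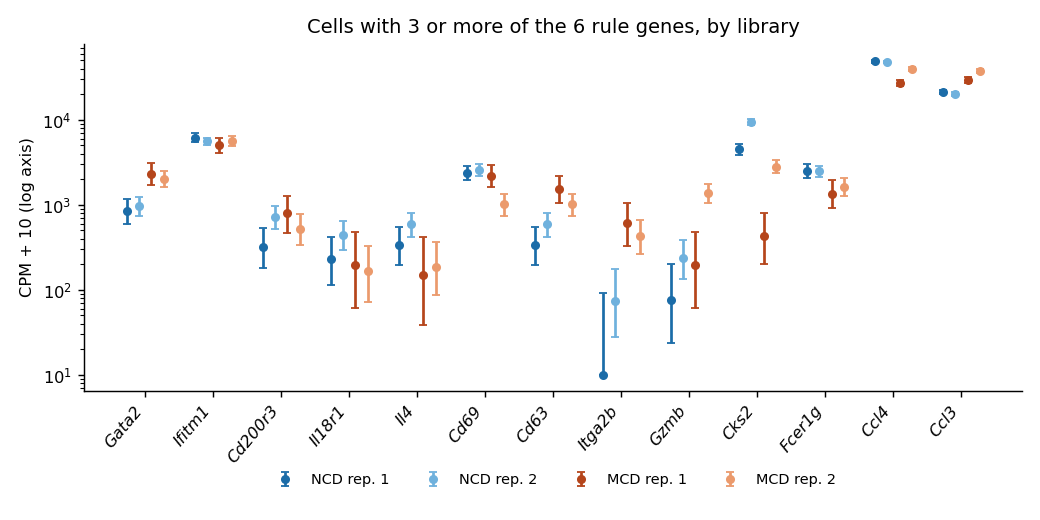
CPM plus 10 (y axis, log) of 13 genes (x axis), chosen after their values were seen, in cells with at least 3 of the 6 rule genes, by library (colour), with 95% exact Poisson intervals as bars. Gata2, Itga2b, Cd63 and Ccl3 are higher in both MCD libraries than in both NCD libraries, Il4, Cd69, Fcer1g and Ccl4 are lower, and the libraries overlap for Ifitm1, Cd200r3 and Gzmb.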

How the data were processed

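The authors deposited UMI counts per gene and cell barcode from single cell 3' v3 libraries, and the submitters' processing notes name Cell Ranger and the mm10 build. The matrices were written by version 3.0.2, per the file headers. Settings of cell calling are not stated in the sources at hand. The 27998 genes common to all files were used. Cells needed 200 genes and up to 10% mitochondrial UMIs. The rule, gene lists and comparisons were chosen with earlier results of these data known.

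UMIs were summed per library over basophils and over the other cells of that library, and CPM is a share of that sum. Replicates are libraries, which may differ only technically. Classes were compared with edgeR's quasi-likelihood F test (edgeR 4.0.16, R 4.3.3), with library as block, TMM scaling, the filterByExpr filter and Benjamini-Hochberg adjustment. Standard errors are the log2 difference over the square root of F. The prior degrees of freedom were infinite, so the spread was not estimated gene by gene. Libraries with fewer than 10 basophils were left out of a test, so that MCD replicate 1 entered none except the 2 added fits on all 4 libraries, and the diet tests were not run. On simulated counts with known changes in the fitted libraries, the comparison with other cells (9293 genes) recovered 97.7% of 4-fold increases, 88.2% of 4-fold decreases, 20% of 2-fold increases and 39.3% of 2-fold decreases. The comparison with eosinophil cells (1529 genes) recovered 0%.

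Named genes are called or defining members of the lists, and the 20 highest and 10 lowest called genes with at least 50 CPM in the higher class and 1 direction in every fitted library. The genes shown by diet were chosen after their values were seen. One gene that met the rule is not reported here. Shares were also taken after thinning cells to 1000 UMIs, without the cells below that depth. Gene positions are from GENCODE M21 (GRCm38), which matched 291 of 293 listed genes, and promoters from RefSeq (GRCm38.p6). Bases after the gene start were not used. Alternatives were DESeq2 1.42.0, library totals, no low-count filter, at least 3 rule genes, 20% mitochondrial UMIs, each library left out, no block, and Csf1r or Lyz2 cells as reference. Added after the data were seen were fits on all 4 libraries, thinning to 500 UMIs and the alternatives for eosinophil cells.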

Additional observations from a re-analysis of the deposited data

Results flagged for a closer look

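Barcodes above the limit of 10% mitochondrial UMIs were outside the comparisons, and some met the basophil rule. They were 4 of 1022 (0.391%) in NCD replicate 1 and 7 of 885 (0.791%) in NCD replicate 2. Inside the limit the shares were 1.90% and 3.92%. In MCD replicates 1 and 2 they were 0 of 270 and 0 of 251, where a count of 0 allows up to 1.11% and 1.20%. Of these 11 barcodes, 3 and 5 held at least 3 of the 6 genes.

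The IgE receptor gamma chain gene Fcer1g lay on different sides of the other cells in the 2 diets. Basophils minus other cells gave 90.9 and 271 CPM in NCD replicates 1 and 2 and -647 and -97.7 CPM in MCD replicates 1 and 2. No counting interval was taken for these differences, and those of NCD replicate 1 and MCD replicate 2 rest on 132 and 214 basophil UMIs. Cells with exactly 2 rule genes gave 36.5% and 61.1% of the MCD basophil UMIs. Over the fitted libraries the log2 difference was 0.00 (adjusted p = 0.999, edgeR). This difference between diets was not tested.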

How the results depend on the processing

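Against the 528 genes called between basophils and other cells, DESeq2 called 272, the fit without the replicate block 155, and cells with at least 3 rule genes in all 4 libraries 1168 (274 higher and 894 lower). Leaving out 1 library gave 209 to 439. The remaining alternatives gave 374 to 676. Between basophils and eosinophil cells, no filter on low counts gave 52 and no replicate block 8 genes against 25. The MCD share of 0.172% was 0.276% unthinned and 0.119% with at least 3 genes. The cause was not tested.

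The replicate numbers are not stated to pair mice. The diet comparison in basophils, with its fit by replicate block and its other alternatives, was not run, because the minimum of 10 basophils a library was not met. Fcer1g changed sign with no filter (-0.13), at least 3 genes (-0.080), Csf1r or Lyz2 cells as reference (-0.053), all 4 libraries (-0.235), and at least 3 genes in all 4 libraries (-0.48), and ranged from -0.18 to 0.10 with 1 library left out. Il3ra turned to -0.019 with at least 3 genes and ranged from -0.10 to 0.51 with 1 library left out. Of 80 named calls, 42 held in every alternative that tested the gene, and none of the 80 reversed. Lost calls were most frequent without the block (32) and without NCD replicate 2 (19). Depth limits the 5 basophils of MCD replicate 1, and 1 UMI there is 29.4 CPM.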

Other observations

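Cks2, a small protein that binds cyclin-dependent kinases, was higher in basophils than in the other cells, and it was chosen here after its values were seen. It stood at 4419 and 8173 CPM in basophils of NCD replicates 1 and 2 and at 264 and 1176 CPM in those of MCD replicates 1 and 2, against 146, 169, 85.2 and 99.6 CPM in the other cells. All 4 libraries had basophils above the other cells, with a log2 difference of 4.66 ± 0.33 (adjusted p = 2.59e-41, edgeR; 4.08 without NCD replicate 2 and 5.25 without MCD replicate 2), and 24, 55, 3 and 8 basophils held it. In cells with at least 3 rule genes both NCD libraries (4481 and 9424 CPM) lay above both MCD libraries (416 and 2799 CPM), with no test. The proliferation genes Mki67 and Top2a did not pass the test: Mki67 was in 0, 1, 0 and 0 basophils and Top2a in 0, 2, 0 and 1.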
